A study of Mus musculus with 6 samples.

Results

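The genes followed here are 10 genes that antibody-secreting plasma cells express strongly and that are no immunoglobulin heavy chain: *Igkc*, *Iglc1*, *Iglc2*, *Jchain*, *Mzb1*, *Derl3*, *Xbp1*, *Prdm1*, *Irf4* and *Sdc1*. They were taken by name from a table of 54532 genes, and all 10 were among the 15520 genes with enough fragments to be tested. The choice was made with the difference between the groups in these same hearts already known, so for these 10 genes the comparison of the groups is given as a description without a test. Bulk RNA sequencing of poly-A RNA was performed on peri-infarcted and infarcted heart tissue, with 1 library per mouse, from 3 WT and 3 TSLPR KO (*Crlf2*-/-) mice. The strain is C57BL/6 in the labels and C57BL/6J in the methods. The methods describe the C57BL/6J mice that were bought as young adult males, and give neither sex nor age for the *Crlf2*-/- mice. All 6 had permanent ligation of the left anterior descending coronary artery, and tissue was taken on day 7 post-MI. The *Crlf2*-/- mice were whole-body knockouts generated by another supplier than the one that sold the C57BL/6J mice. Whether the WT mice compared here were bought or bred with the knockouts is not stated. The source of the mice and the genotype therefore cannot be told apart from what is given. Sham-operated hearts were not analysed here. The study asked how loss of TSLP/TSLPR signaling alters gene expression in the infarcted heart.

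Plasma cells arise from activated B cells. The transcription factors IRF4 and Blimp-1 (encoded by *Prdm1*) switch off the B cell program, and XBP1 then enlarges the endoplasmic reticulum, in which heavy chains are joined to kappa or lambda light chains. The J chain links antibody units into dimeric IgA and pentameric IgM, MZB1 helps these antibodies fold and leave the endoplasmic reticulum, DERL3 removes misfolded protein from it, and syndecan-1 (CD138, encoded by *Sdc1*) marks the surface of plasma cells. *Xbp1*, *Prdm1*, *Irf4* and *Sdc1* are also expressed by other cells of the heart, among them macrophages, T cells, fibroblasts and mesothelium, whereas the light chains and *Jchain* are largely limited to the B cell lineage.

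Each library held 18508646 to 19682428 fragments on listed genes. Expression is given as FPKM, the fragments per gene deposited by the authors after scaling to exon length and library size, and the fragments behind each value were worked out from it. Differences are on the log2(FPKM + 0.1) scale, *Crlf2*-/- minus WT, which understates the difference of low genes. *Crlf2* itself (chr5:109554709-109558993, minus strand of GRCm38) stood at 26.6, 25.1 and 21.6 FPKM in WT and at 13.2, 18.7 and 19.8 FPKM in *Crlf2*-/- hearts. The log2 difference of -0.52 (standard error 0.17) did not pass limma's test (Benjamini-Hochberg adjusted p = 0.521), and values per gene do not show from which exons the remaining fragments came. The extraction protocol of the labels speaks of retina. In the files, 5 heart muscle genes (*Myh6*, *Tnnt2*, *Tnni3*, *Actc1* and *Ryr2*) held 579 to 49048 fragments in every library and 4 retina genes (*Rcvrn*, *Pde6b*, *Gnat1* and *Sag*) held 0 to 10.

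Of the light chain constant genes, the kappa gene was the most abundant and lay far lower in *Crlf2*-/- hearts. *Igkc* (chr6:70726435-70726966, plus strand), the only kappa constant gene of the mouse, stood at 106, 256 and 225 FPKM in WT hearts (1304, 2948 and 2620 fragments). In *Crlf2*-/- hearts it stood at 40.7, 12.3 and 13.4 FPKM (480, 153 and 161 fragments). All *Crlf2*-/- libraries lay below all WT libraries, and within the groups WT replicate 1 was the lowest and *Crlf2*-/- replicate 1 the highest. The mean level was 196 ± 78.9 FPKM (SD, n = 3) in WT against 22.1 ± 16.1 FPKM (SD, n = 3) in *Crlf2*-/- hearts, which is 8.84-fold lower, with a log2 fold change of -3.27 (standard error 0.50). In whole tissue, fewer cells of a type and less RNA per cell cannot be told apart, here and for all genes below.

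Lambda light chains are read from several constant genes that arose by duplication, so fragments of one may be counted for another. The coding sequences of *Iglc2* and *Iglc3* were 96.5% identical in GENCODE M21 (11 differences in 314 aligned bases), whereas *Iglc1* and *Iglc2* were 73.3% identical (84 differences). The first 120 coding bases of the 3 genes are shown as an example of where they differ, since such bases allow a fragment to be assigned to one of them. They lie on the minus strand at chr16:19061952-19062071 (*Iglc1*), chr16:19198733-19198852 (*Iglc2*) and chr16:19065562-19065681 (*Iglc3*) and are written 5′ to 3′. Capitals mark the bases that differ from *Iglc2*, 28 in *Iglc1* and 7 in *Iglc3*.
Iglc1: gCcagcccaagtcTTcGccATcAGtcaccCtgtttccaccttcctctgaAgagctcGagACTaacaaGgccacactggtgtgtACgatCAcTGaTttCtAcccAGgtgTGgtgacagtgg
Iglc2: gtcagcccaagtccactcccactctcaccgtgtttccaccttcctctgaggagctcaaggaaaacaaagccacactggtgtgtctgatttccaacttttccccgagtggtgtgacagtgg
Iglc3: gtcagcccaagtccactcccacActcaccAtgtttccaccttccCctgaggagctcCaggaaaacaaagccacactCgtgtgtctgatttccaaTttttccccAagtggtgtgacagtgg
No stretch of 100 bases in the longest transcript of any of the 10 genes occurred in the transcripts of another listed gene.

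*Iglc1* (chr16:19061618-19062071) stood at 2.58, 2.75 and 5.04 FPKM in WT hearts and at 0.993, 0.0944 and 0 FPKM in *Crlf2*-/- hearts. These values rest on 27, 27 and 50 fragments against 10, 1 and 0, and 0 fragments in *Crlf2*-/- replicate 3 allow a level of up to 0.293 FPKM (3 fragments, counting error only). The groups did not overlap. The mean was 3.46 ± 1.37 FPKM (SD, n = 3) in WT against 0.363 ± 0.548 FPKM (SD, n = 3) in *Crlf2*-/- hearts, 9.53-fold lower, with a log2 fold change of -3.61 (standard error 0.79). *Iglc2* (chr16:19198396-19200351) stood at 0.781, 2.49 and 4.19 FPKM in WT and at 0.810, 0.490 and 0.508 FPKM in *Crlf2*-/- hearts. Here the groups overlapped, since WT replicate 1 (11 fragments) lay just below *Crlf2*-/- replicate 1 (11 fragments in a library of another size). The log2 fold change was -1.63 (standard error 0.52). *Iglc3*, which was not among the 10 genes, lay at -1.74 (standard error 0.76, adjusted p = 0.765 by limma) with 8, 14 and 38 fragments against 4, 14 and 1. Because *Iglc2* and *Iglc3* are nearly identical, how the fragments were divided between them is uncertain. The antisense gene *2010309G21Rik*, which overlaps *Iglc1*, and the lincRNA *Gm30211*, which overlaps *Igkc*, held 0 to 4 fragments per library, and whether the counting used the strand is not given in the sources used here.

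Kappa made up most of the light chain fragments in every library. Its share of *Igkc*, *Iglc1*, *Iglc2* and *Iglc3* fragments together was 96.6%, 97.6% and 94.8% in WT hearts and 95.1%, 87.4% and 95.3% in *Crlf2*-/- hearts. The low value of *Crlf2*-/- replicate 2 rests on 153 kappa and 22 lambda fragments, 14 of the latter from *Iglc3*. Its 95% Clopper-Pearson interval (81.6% to 92.0%, counting error only) lay below those of all WT libraries, whose lowest bound was 93.9%. The other *Crlf2*-/- libraries lay within the range of WT. The group means, 96.3 ± 1.40% (SD, n = 3) and 92.6 ± 4.46% (SD, n = 3), differed by less than the spread between the *Crlf2*-/- libraries.

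**Figure D1:**
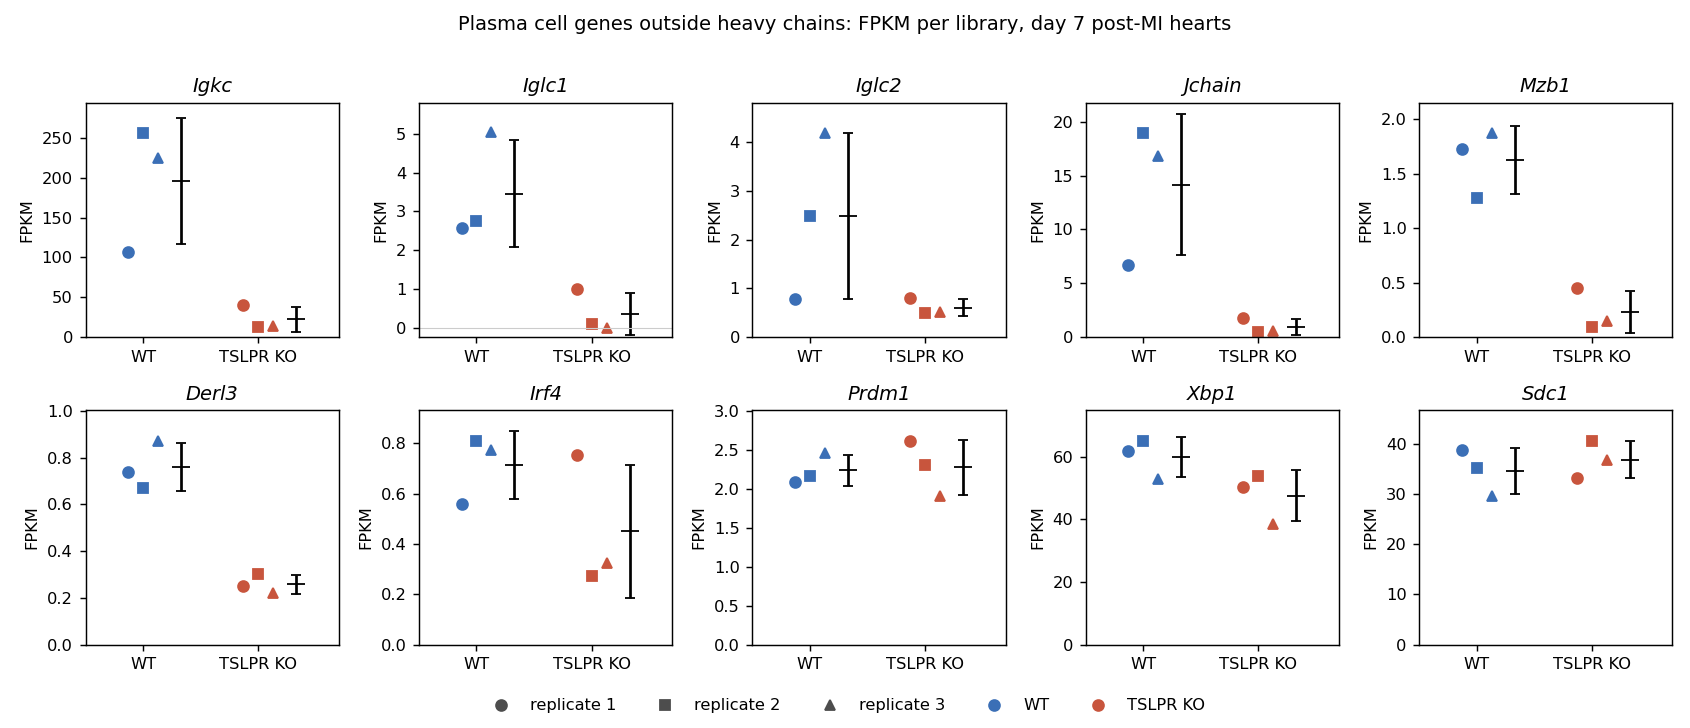
Level of the 10 plasma cell genes in FPKM (vertical axes, linear) in the 3 WT (blue) and 3 TSLPR KO (red) libraries, with the group mean ± SD beside the points. *Igkc*, *Iglc1*, *Jchain*, *Mzb1* and *Derl3* show all KO points below all WT points, while *Prdm1* and *Sdc1* have overlapping groups around 2.24 and 2.28 FPKM and 34.5 and 36.8 FPKM.

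*Jchain* (ENSMUSG00000067149, chr5:88519809-88527891, minus strand) had the largest log2 difference of the 10 genes in this fit, though *Iglc1* or *Igkc* took that place under some other settings. It stood at 6.70, 18.9 and 16.8 FPKM in WT hearts (388, 1033 and 926 fragments) and at 1.74, 0.443 and 0.582 FPKM in *Crlf2*-/- hearts (97, 26 and 33 fragments). The lowest WT library was 3.85 times the highest *Crlf2*-/- library. The mean was 14.2 ± 6.55 FPKM (SD, n = 3) against 0.921 ± 0.711 FPKM (SD, n = 3), 15.4-fold lower, with a log2 fold change of -3.88 (standard error 0.52). Only 3 of the 15520 tested genes had a lower log2 fold change. The 250 bases before the RefSeq start of *Jchain* (GRCm38.p6, chr5:88527898-88528147, minus strand, 5′ to 3′) are shown for comparison with *Derl3*, since 5 motifs of plasma cell and endoplasmic reticulum factors were searched in them on both strands (CCACG and, searched apart from it, CCAAT, with the longer TGACGTGG, ATGCAAAT and AGTGAAAG) and none was found, which says only that these letters are not in this window.
Jchain: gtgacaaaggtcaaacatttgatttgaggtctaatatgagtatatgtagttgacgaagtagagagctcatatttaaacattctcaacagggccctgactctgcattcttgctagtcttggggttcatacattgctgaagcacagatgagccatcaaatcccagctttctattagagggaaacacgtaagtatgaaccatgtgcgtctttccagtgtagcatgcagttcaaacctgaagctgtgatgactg

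*Jchain* was lower in *Crlf2*-/- hearts relative to *Igkc* as well. *Jchain* stood at 6.29%, 7.41% and 7.47% of the *Igkc* FPKM in WT hearts and at 4.27%, 3.59% and 4.33% in *Crlf2*-/- hearts. The means were 7.06 ± 0.664% and 4.07 ± 0.411% (SD, n = 3 each), and the ratio was lower in every *Crlf2*-/- library than in any WT library. Both genes were chosen on this contrast, so the ratio is a description and no test. J chain is needed for IgA and IgM polymers only. The FPKM of *Ighm* was 0.998, 8.37 and 24.4 times that of *Igha* in WT and 203, 36.0 and 24.8 times in *Crlf2*-/- hearts, so the mix of those heavy chains differed from mouse to mouse.

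*Mzb1* (chr18:35647266-35649367, minus strand) was low in level but followed the same pattern. It stood at 1.73, 1.28 and 1.87 FPKM in WT hearts (36, 25 and 37 fragments) and at 0.448, 0.0947 and 0.147 FPKM in *Crlf2*-/- hearts (9, 2 and 3 fragments). The lowest WT library was 2.84 times the highest *Crlf2*-/- library. The mean was 1.62 ± 0.311 FPKM (SD, n = 3) in WT against 0.230 ± 0.191 FPKM (SD, n = 3) in *Crlf2*-/- hearts, 7.06-fold lower, with a log2 fold change of -2.51 (standard error 0.38).

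Within WT hearts the order of the libraries for *Mzb1* was not that for *Jchain* and *Igkc*. WT replicate 1 held 47.3% of the WT mean of *Jchain* and 54.4% of that of *Igkc*, but 106% of that of *Mzb1*, although the *Mzb1* fragments of the 3 WT libraries overlap within their counting intervals. As a share of the *Igkc* FPKM, *Mzb1* stood at 1.62%, 0.499% and 0.830% in WT and at 1.10%, 0.768% and 1.10% in *Crlf2*-/- hearts, with means of 0.984 ± 0.578% and 0.989 ± 0.191% (SD, n = 3 each). Unlike the ratio of *Jchain*, this ratio overlapped between the groups.

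**Figure D2:**
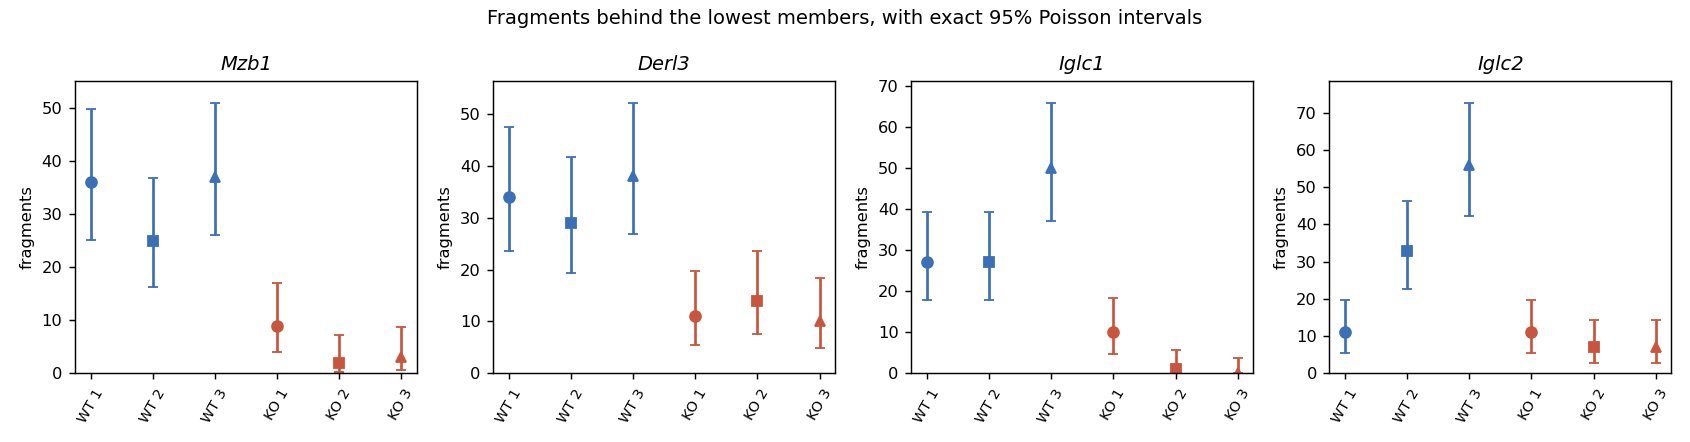
Fragments (vertical axes, linear) behind 4 low plasma cell genes in each library, WT in blue and TSLPR KO in red, with exact 95% Poisson intervals as bars, which cover counting error only. For *Mzb1* the lowest WT count is 25 and the highest KO count 9, and for *Iglc2* WT replicate 1 and KO replicate 1 have 11 fragments each.

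*Derl3* (chr10:75893413-75895941, plus strand), whose protein takes part in the degradation of misfolded protein from the endoplasmic reticulum, varied little within each group. It stood at 0.741, 0.672 and 0.872 FPKM in WT hearts (34, 29 and 38 fragments) and at 0.249, 0.301 and 0.223 FPKM in *Crlf2*-/- hearts (11, 14 and 10 fragments). Neither group held a library that stood apart, and the lowest WT library was 2.23 times the highest *Crlf2*-/- library. The mean was 0.762 ± 0.102 FPKM (SD, n = 3) against 0.258 ± 0.0400 FPKM (SD, n = 3), 2.96-fold lower, with a log2 fold change of -1.27 (standard error 0.21).

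XBP1 and ATF6, the transcription factors of the unfolded protein response, are known to act through an endoplasmic reticulum stress element, CCAAT followed after 9 bases by CCACG. In the 250 bases before the RefSeq start of *Derl3* (GRCm38.p6, chr10:75893148-75893397, plus strand, 5′ to 3′), CCACG occurred 3 times and CCAAT 5 times, counting both strands and with no overlap between them. They are in capitals below, reading CGTGG for the one and ATTGG for the other where they lie on the opposite strand.
Derl3: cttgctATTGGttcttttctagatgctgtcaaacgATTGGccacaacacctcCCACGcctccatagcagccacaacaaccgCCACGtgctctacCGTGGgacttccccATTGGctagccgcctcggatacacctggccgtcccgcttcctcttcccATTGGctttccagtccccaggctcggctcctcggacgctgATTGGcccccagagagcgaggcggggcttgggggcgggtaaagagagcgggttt
Of 32851 RefSeq promoter windows, 28.3% held CCACG and 33.9% held CCAAT at least once, 2.13% held at least 3 CCACG and 0.213% at least 5 CCAAT. The spaced form, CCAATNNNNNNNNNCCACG, was looked for after the *Derl3* sequence had been read. It occurred in *Derl3*, where the printed run reads CGTGG, then 9 bases, then ATTGG, and in 37 of all 32851 windows (0.113%). Of the 6 members with a window, 1 held it, and *Xbp1* and *Jchain* held none of the motifs while *Prdm1*, *Sdc1* and *Irf4* held 1 or 2 CCACG. TGACGTGG, whose complement contains CCACG, was in 0.563% of windows, ATGCAAAT in 1.60% and AGTGAAAG in 1.09%, and none of these was in a member's window. A match is a description of letters, not a site at which a factor was seen.

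*Xbp1* and the transcription factors *Irf4* and *Prdm1* had smaller differences, and their groups overlapped. *Xbp1* (chr11:5520659-5525893), which drives the secretory program but is expressed in many cell types, stood at 61.7, 65.0 and 52.8 FPKM in WT and at 50.3, 53.9 and 38.4 FPKM in *Crlf2*-/- hearts. The mean was 59.8 ± 6.31 FPKM (SD, n = 3) against 47.5 ± 8.12 FPKM (SD, n = 3), with a log2 fold change of -0.34 (standard error 0.15). The highest *Crlf2*-/- library lay above the lowest WT library. *Irf4* (chr13:30749226-30766976), needed for plasma cells and also expressed in T cells, macrophages and dendritic cells, stood at 0.558, 0.810 and 0.774 FPKM in WT and at 0.754, 0.271 and 0.326 FPKM in *Crlf2*-/- hearts. Its log2 fold change was -0.65 (standard error 0.34), and *Crlf2*-/- replicate 1 lay among the WT libraries while *Crlf2*-/- replicates 2 and 3 lay below them. *Prdm1* (chr10:44437177-44528501) stood at 2.09, 2.17 and 2.47 FPKM in WT and at 2.62, 2.31 and 1.92 FPKM in *Crlf2*-/- hearts. Its mean was 2.24 ± 0.201 FPKM (SD, n = 3) against 2.28 ± 0.352 FPKM (SD, n = 3), a difference smaller than either spread.

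*Sdc1* (chr12:8771323-8793715), although the usual surface marker of plasma cells, was not lower in *Crlf2*-/- hearts. It stood at 38.8, 35.1 and 29.7 FPKM in WT and at 33.2, 40.6 and 36.7 FPKM in *Crlf2*-/- hearts. The log2 fold change was 0.10 (standard error 0.13), and the means of 34.5 ± 4.61 and 36.8 ± 3.69 FPKM (SD, n = 3 each) differed by less than the spread. Its level was higher per length than that of *Jchain* in every library, and 9 epithelial and mesothelial genes, which mark other cells that carry syndecan-1, summed to 12.5, 25.7 and 26.2 FPKM in WT and 36.9, 15.6 and 21.9 FPKM in *Crlf2*-/- hearts, with none of the 9 at 0 in any library. Within each group, a library with a higher sum of these genes had a lower *Sdc1* level. The part of these other cells in the level of *Sdc1* was not tested.

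Across the 10 genes, 8 were lower and 2 (*Prdm1* and *Sdc1*) were higher in *Crlf2*-/- hearts, where 50.9% of all tested genes were lower. For 5 genes (*Igkc*, *Iglc1*, *Jchain*, *Mzb1* and *Derl3*) all *Crlf2*-/- libraries lay below all WT libraries, which held for 6.45% of all tested genes. For 0 genes did every *Crlf2*-/- library lie above every WT library, against 5.24% of all tested genes. A log2 fold change of at most -1 was seen in 6 of the 10 genes and in 0.728% of all tested genes, and with a pseudocount of 1 in place of 0.1 it was seen in 4 of the 10. The median log2 fold change was -1.45 over the 10 genes and -0.004 over all tested genes. These shares describe genes chosen on this contrast, and 3 of them (*Iglc1*, *Iglc2* and *Mzb1*) had enough fragments to be tested only through the WT libraries.

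The fit across all genes called 1 gene lower (*Ighg2b*, 0.00644% of those tested) and 1 higher (*Wdfy1*, also 0.00644%), where a call needs an adjusted p no higher than 0.05 together with a log2 fold change of at least 0.5 in size. The paper, which used DESeq2 with the same thresholds, reported more genes in each direction. By the order of their log2 fold changes from the lowest among 15520 genes, *Jchain* was number 4, *Iglc1* 7, *Igkc* 10, *Mzb1* 14, *Iglc2* 30, *Derl3* 63, *Irf4* 280 and *Xbp1* 1063, with *Prdm1* at 8664 and *Sdc1* at 11217. The genes thus ran from the extreme of the table to its middle.

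**Figure D3:**
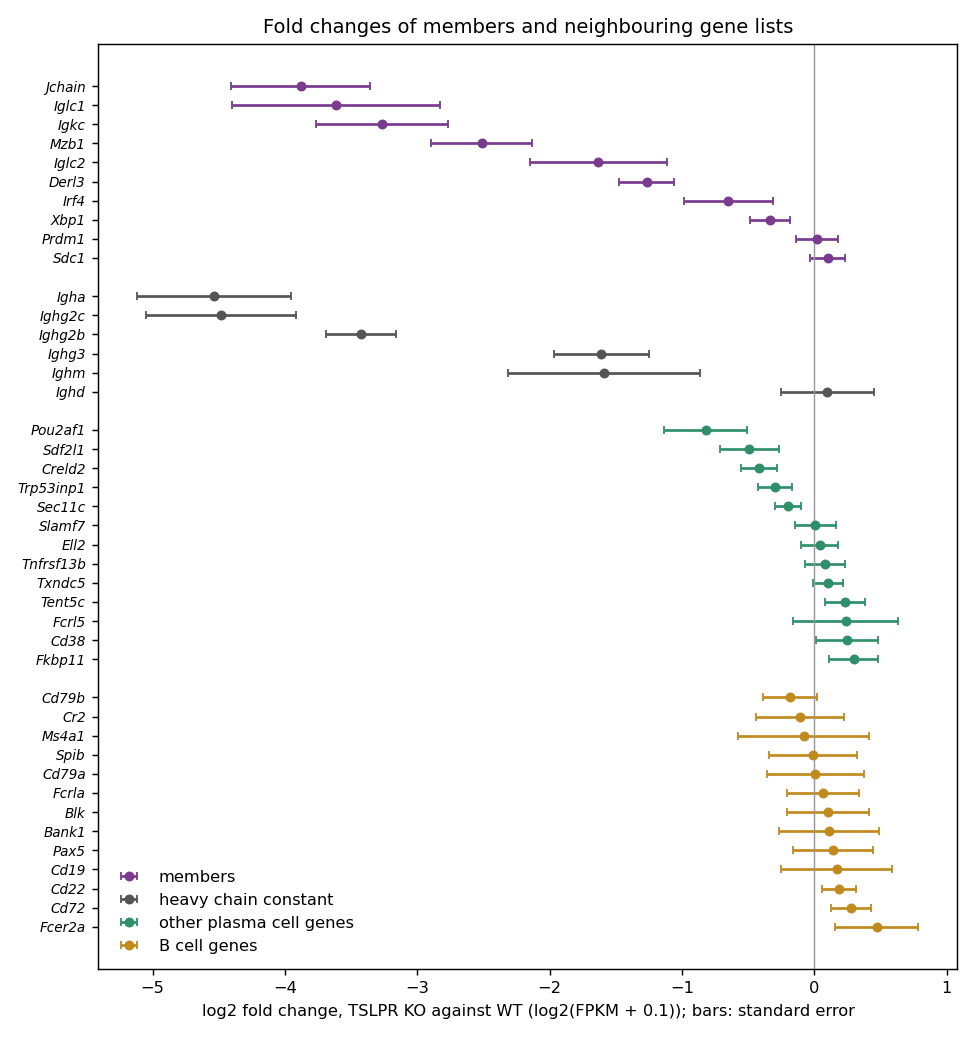
Log2 fold change, TSLPR KO against WT, on the log2(FPKM + 0.1) scale (horizontal axis), with standard errors as bars, for the 10 plasma cell genes, tested heavy chain constant genes, other plasma cell genes and B cell genes. *Jchain* (-3.88) to *Derl3* (-1.27) lie at -1 or below with most heavy chains, while *Prdm1*, *Sdc1* and the B cell genes lie around 0.

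The libraries within a group were not alike for these genes. WT replicate 1 was the lowest WT library for 6 of the 10 genes, and *Crlf2*-/- replicate 1 was the highest *Crlf2*-/- library for 7 of the 10. *Jchain* stood at 47.3%, 134% and 119% of its WT mean in the WT libraries and at 12.3%, 3.13% and 4.11% in the *Crlf2*-/- libraries, while *Derl3* stood at 97.3%, 88.2% and 115% against 32.7%, 39.5% and 29.2%. Without *Crlf2*-/- replicate 1 the log2 fold change was -4.42 for *Jchain*, -3.82 for *Igkc*, -2.96 for *Mzb1*, -4.61 for *Iglc1* and -1.02 for *Irf4*. *Irf4* moved by over 1.5 times there and also without *Crlf2*-/- replicate 2 (-0.41), as did *Xbp1* without *Crlf2*-/- replicate 3 (-0.19). With each library left out in turn *Jchain* ranged from -4.42 to -3.53, *Igkc* from -3.82 to -2.95, *Derl3* from -1.35 to -1.18 and *Iglc2* from -2.27 to -1.13. *Prdm1* ranged from -0.08 (without *Crlf2*-/- replicate 1) to 0.14 (without *Crlf2*-/- replicate 3) while *Sdc1* reached -0.005 without WT replicate 3 and 0.20 without WT replicate 1.

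Over the 6 libraries the profiles of *Jchain*, *Igkc* and *Iglc1* lay close together, and so did those of *Prdm1*, *Xbp1* and *Sdc1*. Likeness was measured as the mean absolute difference, over the 6 libraries, between log2(FPKM + 0.1) values relative to the WT mean, so a smaller number means a closer pattern. *Jchain* lay at 0.359 from *Igkc* and at 0.682 from *Iglc1*, but at 1.03 from *Mzb1* and 2.36 from *Sdc1*. *Prdm1*, *Xbp1* and *Sdc1* lay at 0.245 to 0.282 from each other. *Derl3* lay nearest to *Irf4* (0.425), and *Mzb1* nearest to *Igkc* (0.670) and *Derl3* (0.677).

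Of all tested genes outside the 10, those with the pattern most like *Jchain* over the 6 libraries were immunoglobulin genes: *Igkv19-93* (0.514), *Igkv4-91* (0.772), *Igkv1-110* (0.844), *Iglv1* (0.869) and *Ighg2b* (0.883). Of the 20 most alike, 14 were immunoglobulin genes or segments. Among the nearest others were *Gzmk* (1.20), a granzyme of T and NK cells, and *Car14* (1.29), a carbonic anhydrase, with log2 fold changes of -2.31 and -1.66. For *Mzb1* the nearest were *Gm9780* (0.477), a predicted gene, *Iglv1* (0.480), *Rbp7* (0.520), a retinol-binding protein, *Igkv19-93* (0.594) and *Ccl22* (0.606), a chemokine of dendritic cells and macrophages. Only 6 of its 20 most alike were immunoglobulin genes. The log2 fold changes of *Gm9780*, *Rbp7* and *Ccl22* were -1.80, -1.74 and -1.54. These neighbours were picked for their likeness to genes chosen on the same contrast, and are a description.

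Of the heavy chain constant genes with which the light chains pair, *Ighg2b* fell from 2.50 ± 0.108 to 0.152 ± 0.0915 FPKM (SD, n = 3 each, log2 fold change -3.42, standard error 0.27, adjusted p = 0.00856 by limma), a call that was lost without WT replicate 1 (adjusted p = 0.0561), WT replicate 2 (0.0757) or *Crlf2*-/- replicate 3 (0.118). *Igha* (-4.53, adjusted p = 0.0851), *Ighg2c* (-4.48, 0.0778), *Ighg3* (-1.61, 0.254), *Ighm* (-1.59, 0.807) and *Ighd* (0.10, 0.996) did not pass the adjusted threshold of limma. Light over heavy constant FPKM was 1.96, 1.51 and 1.56 in WT and 1.07, 0.609 and 0.609 in *Crlf2*-/- hearts, with means of 1.68 ± 0.247 and 0.763 ± 0.267 (SD, n = 3 each) and no overlap. The heavy sum was mostly *Ighm*, which B cells also express, except in WT replicate 1: *Ighm* made up 22.6, 144 and 140 of 56.4, 174 and 152 FPKM in WT and 37.7, 20.8 and 21.01 of 40.1, 23.4 and 23.1 FPKM in *Crlf2*-/- hearts. *Igha*, *Ighg2b* and *Ighg2c* had larger log2 differences than *Igkc*.

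The light chains and *Jchain* are transcribed at far higher levels in plasma cells than in B cells, so their levels were set against the B cell gene *Cd79a*, a part of the B cell receptor. *Cd79a* stood at 1.01, 1.58 and 1.04 FPKM in WT and 2.20, 1.03 and 0.731 FPKM in *Crlf2*-/- hearts, with overlapping groups. The *Igkc* FPKM was 105, 162 and 217 times that of *Cd79a* in WT hearts and 18.5, 12.0 and 18.4 times in *Crlf2*-/- hearts. The means were 161 ± 56.2 and 16.3 ± 3.74 (SD, n = 3 each), and relative to *Cd79a* the 3 *Crlf2*-/- libraries lay closer together than for *Igkc* alone. For *Jchain* this ratio was 11.6 ± 4.83 in WT and 0.672 ± 0.210 in *Crlf2*-/- hearts, and for *Mzb1* it was 1.44 ± 0.551 and 0.166 ± 0.0639 (SD, n = 3 each).

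**Figure D4:**
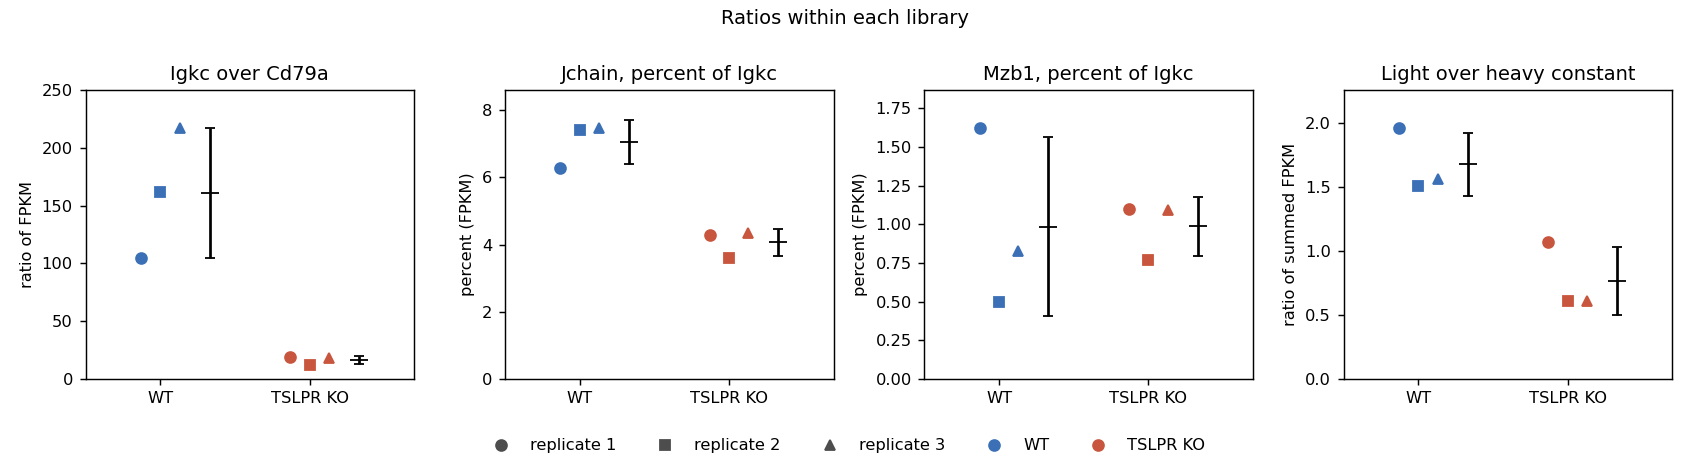
Ratios within each library (vertical axes, linear, from 0) for WT (blue) and TSLPR KO (red), with the group mean ± SD beside the points: *Igkc* over *Cd79a*, *Jchain* and *Mzb1* as percent of *Igkc*, and light over heavy constant genes. The groups lie apart in all panels but that of *Mzb1* over *Igkc*, where the means are 0.984% and 0.989%. The KO points of that panel rest on 9, 2 and 3 *Mzb1* fragments.

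Other genes of plasma cells were called in neither direction, though some lay lower in all *Crlf2*-/- libraries. limma called only 0.00644% of all tested genes lower and 0.00644% higher, so 0 calls in a short list say little. Of 16 plasma cell genes that are no immunoglobulin gene and not among the 10, 13 were tested, 5 were lower and 8 higher, with a median log2 fold change of 0.04. WT means of the 13 ran from 0.123 FPKM (*Fcrl5*) to 95.5 FPKM (*Txndc5*), beside 1.62 FPKM for *Mzb1* (*Fcrl5* and *Txndc5* named after their values were seen). How much of these levels came from cells other than plasma cells was not tested. In 4 of the 13 (*Pou2af1*, *Creld2*, *Trp53inp1* and *Sec11c*) all *Crlf2*-/- libraries lay below all WT libraries, and in 0 above, beside 6.45% and 5.24% of all tested genes. limma called 0 of them and voom called 0, and 3 were lower at an unadjusted p under 0.05 (3.36% of all tested genes were lower and 3.22% higher by that measure), namely *Pou2af1* (-0.82, standard error 0.31, adjusted p = 0.673), *Creld2* (-0.42, adjusted p = 0.523) and *Trp53inp1* (-0.30, adjusted p = 0.757), *Creld2*, *Trp53inp1* and *Sec11c* being named after their values were seen. *Pou2af1* encodes a B cell coactivator of octamer factors. Without WT replicate 3, which had 88 of its fragments against 44 and 41 in the other WT libraries, its log2 fold change was -0.49. The highest was *Fkbp11* (0.30, adjusted p = 0.900), a folding enzyme of secretory cells. The markers most particular to plasma cells were near 0: *Tnfrsf17*, the receptor BCMA, held 1, 5 and 6 fragments in the WT libraries against 1, 2 and 0 in *Crlf2*-/- hearts, *Bhlha15* had 1, 4 and 6 against 2, 0 and 2, and *Eaf2* had 10, 14 and 4 against 5, 7 and 4, and none of the 3 could be tested.

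Of 32 chaperone, translocation and degradation genes that all secretory cells use, 22 were lower and 10 higher, with a median log2 fold change of -0.09. For 6 of the 32 all *Crlf2*-/- libraries lay below all WT libraries and for 0 above, again beside 6.45% and 5.24% of all tested genes. limma and voom called 0 of them, where limma called 0.00644% of all tested genes in each direction. At an unadjusted p under 0.05, 5 were lower and 0 higher, beside 3.36% and 3.22% of all tested genes. The lowest was *Dnajb9* (-0.56, standard error 0.15, adjusted p = 0.369), a cochaperone induced by XBP1, and the highest was *Sec61a1* (0.16), a subunit of the translocation channel. The other 4, named after their values were seen, were *Herpud1* (-0.45, adjusted p = 0.279), *Manf* (-0.39), *Syvn1* (-0.33) and *Hspa5* (-0.37), which encode proteins of the unfolded protein response, and *Pdia4* (-0.17), a disulfide isomerase, was the remaining gene without overlap. The spaced motif seen before *Derl3* was also found before 7 of the 26 secretory genes with a RefSeq window (*Calr*, *Canx*, *Dnajc3*, *Hsp90b1*, *Hspa5*, *Pdia6* and *Syvn1*) and before *Creld2*. All 8 of these genes were lower, with log2 fold changes from -0.42 to -0.10 and a median of -0.21. Of the whole secretory list, from which 7 of them come, 22 of 32 were lower (median -0.09), beside 50.9% of all tested genes. They were grouped after the values had been seen, and this count was not tested. Over all windows 35 genes held the motif, and the fold changes of those outside the lists used here were not looked at.

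B cell identity genes, many of which plasma cells switch off, had small differences in both directions. Of 14 such genes, 13 were tested, 4 were lower and 9 higher, with a median log2 fold change of 0.11, ranging from *Cd79b* (-0.18) to *Fcer2a* (0.47). limma called 0 and voom called 0, where limma called 0.00644% of all tested genes in each direction. At an unadjusted p under 0.05, 0 were lower and 0 higher, beside 3.36% and 3.22% of all tested genes. Every *Crlf2*-/- library lay above every WT library for 1 of them, *Cd22* (named after its values were seen), and below for 0, beside 5.24% and 6.45% of all tested genes. Without *Crlf2*-/- replicate 1 the median was -0.13. The list's median, taken relative to WT, stood at -0.40, 0.18 and 0.22 in the WT libraries and at 0.56, -0.19 and -0.03 in the *Crlf2*-/- libraries, so WT replicate 1 and *Crlf2*-/- replicate 1 stood at the ends for B cell genes as they did for *Igkc* and *Jchain* within their groups.

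**Figure D5:**
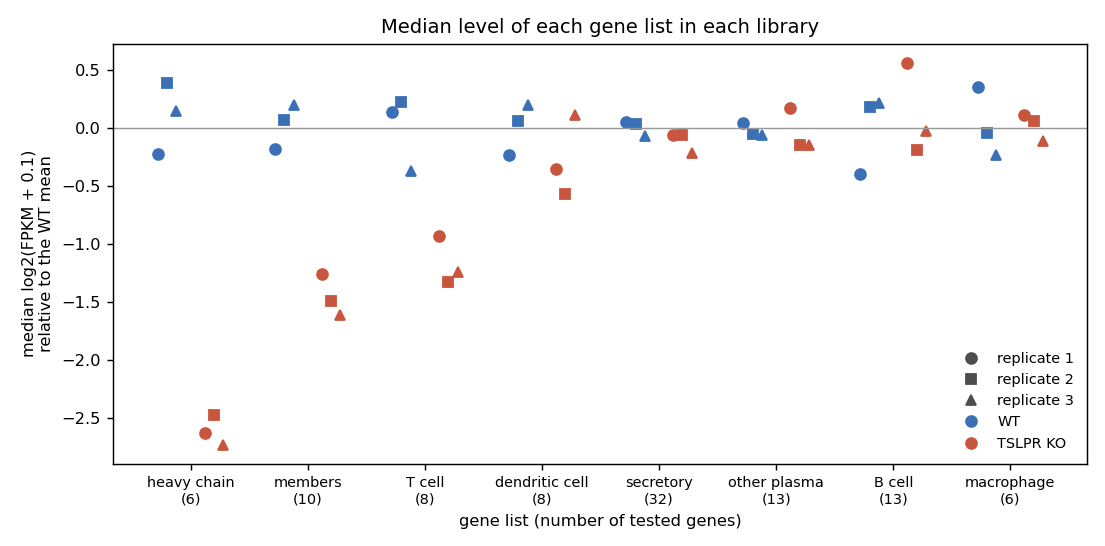
Median of log2(FPKM + 0.1) relative to the WT mean (vertical axis, a difference on the log2 scale) for each gene list, 1 point per library, WT in blue and TSLPR KO in red. Points of the 10 plasma cell genes lie between -1.61 and -1.26 in KO, those of the T cell list between -1.33 and -0.93, and those of the B cell list overlap between groups.

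Genes of some other cell types were lower in *Crlf2*-/- hearts as well. All 8 T cell genes were lower, beside 50.9% of all tested genes, with a median log2 fold change of -1.12 from *Cd28* (-0.21) to *Cd3g* (-1.48). In 7 of the 8 all *Crlf2*-/- libraries lay below all WT libraries, beside 6.45% of all tested genes. The 8 genes summed to 11.01, 11.7 and 7.43 FPKM in WT and 5.24, 4.26 and 4.31 FPKM in *Crlf2*-/- hearts. limma called 0 of the 8 and voom called 0, where limma called 0.00644% of all tested genes in each direction. At an unadjusted p under 0.05, 7 were lower, beside 3.36% of all tested genes. The paper, which used DESeq2 with the same thresholds, named *Lck* and *Cd3e* of this list among its downregulated genes. Of 8 dendritic cell genes 6 were lower (median -0.30, from *Cd209a* at -0.99 to *Ccr9* at 0.14), and of 6 macrophage genes 2 were lower (median 0.05, from *Mertk* at -0.28 to *C1qa* at 0.23). All *Crlf2*-/- libraries lay below all WT libraries in 3 of the dendritic cell genes and above in 0. In the macrophage list this held for 1 gene in each direction, beside 6.45% (below) and 5.24% (above) of all tested genes. None of these genes was at 0 in any library. The 5 heart muscle genes summed to 834, 1661 and 1449 FPKM in WT and 709, 574 and 1117 FPKM in *Crlf2*-/- hearts. All 5 were lower in *Crlf2*-/- hearts, with overlapping groups, beside 50.9% of all tested genes. Their log2 fold changes ran from *Tnni3* (-1.34, adjusted p = 0.619 by limma) and *Myh6* (-1.17, adjusted p = 0.792) to *Ryr2* (-0.28, adjusted p = 0.995). WT replicate 1, low in *Igkc* and *Jchain*, was also the WT library lowest in heart muscle. *Crlf2*-/- replicate 2, the lowest in both antibody genes, was also the lowest in heart muscle. *Crlf2*-/- replicate 3, nearly as low in both, was the *Crlf2*-/- library highest in heart muscle. The part of these cell types in the level of the plasma cell genes was not tested.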

How the data were processed

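RNA from heart tissue of 3 WT and 3 *Crlf2*-/- mice was sequenced in paired ends, 1 library per mouse. The authors trimmed the reads with fastp, aligned them with Hisat2 2.0.5, counted fragments with featureCounts and deposited FPKM per gene. The submitters' processing notes name mm10 and hg38. The positions in the table were those of GENCODE M21 (GRCm38) for 53585 of 54532 genes. FPKM multiplied by gene length gave whole fragments for 100% of nonzero values (tolerance 0.01), and these set depth and filter. A gene was tested if 3 or more libraries held 10 or more of its fragments and the sum was 15 or more.

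Libraries were scaled with trimmed means of M values (factors 0.990 to 1.01), and log2(FPKM + 0.1) was fitted with limma 3.58.1 (trend, robust) in R 4.3.3, with WT and *Crlf2*-/- as the only term. A gene was called when its p-value, adjusted after Benjamini and Hochberg, was 0.05 or less, with a log2 fold change of at least 0.5 in size. Nothing says that the mice came from separate litters, and p-values measure the spread between these 6 libraries. No 2 libraries were the same. The table held 0 columns of other samples.

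The 10 genes and the gene lists were chosen with earlier results of these data known. Named genes were the 10, of each list the lowest and highest log2 fold change and any called gene, heavy chains with enough fragments, *Crlf2*, and the genes most like *Jchain* and *Mzb1*; the others are marked. A result on an item withheld for evaluation is not reported here. Alternatives were median-of-ratios scaling, no scaling, no filter, a stricter filter, pseudocounts of 1 and 0.01, the replicate number as a block, voom, and leaving out each library. Promoters of 6 of the 10 genes were in the RefSeq table used, and *Igkc*, *Iglc1*, *Iglc2* and *Mzb1* had no entry. Tables were made with pandas 2.3.3 in Python 3.11.15 and drawn with matplotlib 3.10.9.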

Additional observations from a re-analysis of the deposited data

How the results depend on the processing

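The number of genes called different over the whole table, 2, became 6 with no filter on low genes, 1 with at least 10 fragments in every library and 4 with the replicate number as a block, and ranged from 1 to 14 with each library left out (14 without *Crlf2*-/- replicate 1, 8 without WT replicate 3, 1 without WT replicate 1, WT replicate 2 or *Crlf2*-/- replicate 3). voom called 3. The number of the 10 genes lower in *Crlf2*-/- hearts, 8, became 5 of 7 tested with at least 10 fragments in every library, which leaves out *Iglc1*, *Iglc2* and *Mzb1*, and was 8 or 9 with each library left out. Same-numbered libraries deviated from their group means with correlations of -0.016, 0.115 and 0.12, so the numbers were not taken as pairs.

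The median of the other plasma cell genes, 0.04, ranged from -0.06 to 0.08 with each library left out and was -0.09 with no filter, so its sign is not stable. That of the B cell genes ranged from -0.13 to 0.20 and that of the secretory genes from -0.14 to -0.03. A pseudocount of 1 gave -2.92 for *Jchain*, -1.74 for *Iglc1*, -1.10 for *Mzb1*, -0.99 for *Iglc2*, -0.48 for *Derl3* and -0.25 for *Irf4*, so that 4 in place of 6 of the 10 genes lay at -1 or below, and 0.01 gave -5.02 for *Iglc1* and -1.53 for *Derl3*. voom gave -1.52 for *Derl3*. The lowest of the 10 was *Igkc* with a pseudocount of 1, *Iglc1* with 0.01, under voom and without WT replicate 2 or *Crlf2*-/- replicate 1, and *Jchain* under the other settings. *Ighg2c* passed the threshold without WT replicate 3 (adjusted p = 0.0371). No result changed its direction past a threshold. Depth limits *Mzb1*, *Iglc1*, *Iglc2* and *Derl3*, which rest on fewer than 60 fragments in every library.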

Other observations

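Of 13 survival factors, chemokines and adhesion molecules that act on plasma cells, with their receptors, 9 were tested, 4 lower and 5 higher, with a median log2 fold change of 0.003. The lowest was *Cxcr3*, a chemokine receptor of activated lymphocytes and plasmablasts (4.37 ± 0.369 against 3.06 ± 0.381 FPKM, SD, n = 3 each, log2 fold change -0.50, adjusted p = 0.363 by limma), and the highest was *Cxcl12* (0.16), which retains plasma cells in their niche. limma and voom called 0 of the 9, where limma called 0.00644% of all tested genes in each direction. Only 1 (*Cxcr3*) was lower at an unadjusted p under 0.05, and its groups did not overlap, beside 3.36% and 6.45% of all tested genes.

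Of 6 germinal centre genes, 4 were tested, from *Gcsam* (-0.53, adjusted p = 0.938) to *Mybl1* (0.13, adjusted p = 0.995). limma and voom called 0 of the 4, where limma called 0.00644% of all tested genes in each direction. At an unadjusted p under 0.05, 0 were lower and 0 higher, beside 3.36% and 3.22% of all tested genes. Among 8 lymph node stroma and thymus genes 2 were tested. Fragments of *Ccl21a* numbered 178, 52 and 10 in the WT libraries against 5, 205 and 6 in *Crlf2*-/- hearts, and its log2 fold change of -1.24 became -2.88 without *Crlf2*-/- replicate 2 and -0.29 without WT replicate 1. *Cr2* had a log2 fold change of -0.11. WT replicates 2 and 3, which held the most *Igkc*, had fewer *Ccl21a* fragments than WT replicate 1, and *Crlf2*-/- replicate 2, which held the most *Ccl21a*, had the least *Igkc*. *Ccl21a* is a single gene, and the part of lymph node tissue in the level of the plasma cell genes was not tested. Among epithelial and mesothelial genes the median was 0.39, from *Epcam* (-0.85) to *Wt1* (0.54).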
